A study of Mus musculus with 179 samples.

Results

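The 44 mouse genes whose symbol names a collagen alpha chain (Col, a type number, the letter a and a chain number) were followed through a table of unique molecular identifier (UMI) counts that holds 32100 gene identifiers. Collagen messages made up 1.54% of all UMIs in 6 fibroblast-rich cells and 0.0549% in all other cells. The 6 cells held Col1a1, Col1a2, Col3a1, Col5a1, Col5a2, Col5a3, Col6a1, Col6a2, Col6a3, Col8a1 and Col15a1 and, in 3 of them, Col10a1. These genes were close to absent in the other cells when pooled, though 21 of those cells held a Col5a2 UMI and 18 a Col5a1 UMI. The other cells carried mainly Col18a1, Col4a1, Col4a2 and Col27a1. Type IV collagen was found in both, at a higher level in 5 of the 6 fibroblast-rich cells.

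The cells came from wild-type C57BL6 mouse exocrine pancreas, the tissue that makes digestive enzymes. Acinar cells were freed by enzymatic digestion and a density gradient, then grown for 9 days as organoids in Matrigel, a basement membrane extract. RNA of each cell was read by Smart-seq3, the transcript arm of scNMT-seq, in which methylation and chromatin access of the same cell are read as well. Each deposited sample is 1 cell, all are labelled as acinar cells of 1 group, and no animal, donor or culture is named. Cells are therefore not replicates: no p-value was computed, intervals cover counting error only, and every difference below compares these cells and not conditions. The 6 cells (Acinar5, Acinar6, Acinar44, Acinar105, Acinar182 and Acinar188) had been singled out in an earlier reading of these same data by a fibroblast gene list that held Col1a1, Col1a2 and Col3a1. Their excess of collagen is thus given as a description.

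Median depth was alike in both sets of cells, with 133748 to 228062 UMIs (median 169027) in the fibroblast-rich cells and 3258 to 329522 (median 165267) in the other cells. Other cells with at least 40000 UMIs are called deep below. Levels are UMI CPM, the UMIs of a gene scaled to a fixed total of 1000000 in the cell or pool, which count molecules and are not scaled to gene length. All 13 fibroblast markers other than collagens were at least 4-fold higher in the fibroblast-rich cells, where 8.08% of all genes with 20 or more UMIs were. The cells had been picked on fibroblast genes, so this is a description and no support for their name. Pdgfra, Dcn, Lum, Thy1, Postn and Fbn1 also reached 20 UMIs only through the fibroblast-rich cells. The markers summed to 8154 to 15601 CPM in the fibroblast-rich cells. In the other cells the median was 99.1 CPM (highest 3004 CPM, in Acinar183). The 7 epithelial markers summed to 542 to 942 CPM in 5 of the fibroblast-rich cells and to 6954 CPM in Acinar188, against 4621 to 37111 CPM in the other cells. The 8 stellate and smooth muscle markers summed to 432 to 1135 CPM in 5 of the fibroblast-rich cells and to 6065 CPM in Acinar6. Their median in the other cells was 5.997 CPM, with a highest of 2516.5 CPM in Acinar172, so the ranges overlapped. Cnn1 and Rgs5 were at 0 in all 6 fibroblast-rich cells. Rgs5 went the other way, with 386 UMIs in 30 of the other cells. With a floor of 3 UMIs over the fibroblast-rich cells its ratio was 0.195, with a counting interval up to 0.241. All cells are labelled as acinar, and what marker level that label calls for after 9 days of culture was not tested. The 5 acinar markers summed to 96.8 to 185.06 CPM in the fibroblast-rich cells. Their median in the other cells was 103.5 CPM, although Acinar52 held 168030 CPM. Pooled, Acinar52 included, they summed to 125.45 CPM in the fibroblast-rich cells against 1491.5 CPM in the other cells. Among the 6 immune markers, 5 had no UMI in the fibroblast-rich cells, and the list summed to 3.74 CPM there against 6.503 CPM in the other cells. The 4 mesothelial markers summed to 65.5 CPM in the fibroblast-rich cells, with Upk3b and Lrrn4 at 0, and to 575 CPM in the other cells, nearly all of it Msln. Wt1 was found in Acinar6, Acinar105 and Acinar182, 17 UMIs in all, with 68.9 CPM in Acinar105, and none in the other cells. With a floor of 3 UMIs over the other cells its ratio was 141.95, with a counting interval from 103.4 upward. The 6 endothelial markers summed to 303 CPM in the fibroblast-rich cells and 17.5 CPM in the other cells. Eng was 253-fold higher in the fibroblast-rich cells. Kdr had 7 UMIs there, in Acinar105 and Acinar182, and none in the other cells. With the same floor its ratio was 58.5, with a counting interval from 36.1 upward. Wt1 and Kdr both had fewer than the 20 UMIs needed for a call. Plvap was 5.78-fold higher (2.81 to 10.97), or 1.81-fold without Acinar44. Pecam1 was 16.9 CPM in the fibroblast-rich cells against 13.5 CPM in the other cells, and Esam and Cdh5 had 3 UMIs and 1 UMI in the fibroblast-rich cells. The part of these markers in the collagen levels was not tested. The 3 Schwann markers in the table summed to 22.5 CPM in the fibroblast-rich cells and 13.9 CPM in the other cells.

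Collagens are secreted proteins in which alpha chains with a Gly-X-Y repeat wind into a triple helix. Fibrillar collagens build the cables of connective tissue and are made mainly by fibroblasts and, in the pancreas, by stellate cells. Type IV collagen forms the sheet of the basement membrane on which epithelium rests, types XV and XVIII are proteoglycan collagens of the basement membrane zone, and other types link fibrils, anchor epithelium or sit in the plasma membrane.

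The paired chains of the most abundant trimers are encoded in different ways in the genome. Col1a1 and Col1a2 lie on separate chromosomes, chr11:94936224-94953042 and chr6:4504814-4541544 of GRCm38, both on the plus strand. Col4a1 (chr8:11198423-11312826, minus strand) and Col4a2 (chr8:11312805-11449287, plus strand) stand head to head, with annotated starts 21 bases apart. The promoters of Col1a2, Col4a1 and Col4a2 are shown because the paired chains are compared below. Col1a1 had no entry among the promoters used here. The windows run from 250 bases before to 50 bases after the RefSeq start on GRCm38.p6, and capitals mark CCAAT, or ATTGG where the motif reads on the opposite strand, the only motif of those searched that was found in them.
Col1a2, chr6:4505368-4505667, plus strand: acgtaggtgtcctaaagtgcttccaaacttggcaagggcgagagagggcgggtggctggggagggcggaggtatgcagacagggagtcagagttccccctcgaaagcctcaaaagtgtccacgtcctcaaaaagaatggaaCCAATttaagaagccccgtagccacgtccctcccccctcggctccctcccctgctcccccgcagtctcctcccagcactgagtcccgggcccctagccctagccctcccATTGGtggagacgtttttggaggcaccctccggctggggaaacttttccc
Col4a1, chr8:11312777-11313076, minus strand: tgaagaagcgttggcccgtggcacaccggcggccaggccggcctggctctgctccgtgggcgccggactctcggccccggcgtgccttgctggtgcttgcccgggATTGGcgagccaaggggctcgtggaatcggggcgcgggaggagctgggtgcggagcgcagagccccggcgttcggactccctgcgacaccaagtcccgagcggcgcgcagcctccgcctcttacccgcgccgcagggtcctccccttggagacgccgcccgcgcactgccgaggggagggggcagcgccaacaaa
Col4a2, chr8:11312555-11312854, plus strand: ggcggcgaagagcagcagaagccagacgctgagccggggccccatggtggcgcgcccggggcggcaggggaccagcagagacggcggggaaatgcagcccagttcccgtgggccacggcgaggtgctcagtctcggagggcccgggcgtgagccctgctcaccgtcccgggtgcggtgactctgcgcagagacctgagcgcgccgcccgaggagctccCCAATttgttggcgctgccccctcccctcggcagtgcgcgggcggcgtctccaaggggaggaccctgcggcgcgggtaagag
The Col4a1 and Col4a2 windows share 78 bases, read from opposite strands. CCAAT lay at -109 and +1 from the start in Col1a2, at -145 in Col4a1 and at -32 in Col4a2. Of 35 members with a RefSeq promoter (38 promoters), 13 held CCAAT on either strand, against 37.4% of all 32851 promoters of the same length. TATAA on either strand was held by 7 of the 35, against 24.9% of all promoters. These matches describe letters in a window and say nothing of binding.

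Of the 44 members, 32 had at least 20 UMIs over all cells. Of these, 22 were at least 4-fold higher in the fibroblast-rich cells and 0 were at least 4-fold lower, where 8.08% of the 17752 genes with 20 or more UMIs were that much higher and 7.1% that much lower. Without Col1a1, Col1a2 and Col3a1, 19 of 29 were higher. These counts are not support for a direction: 10 of the 32 members had fewer than 20 UMIs in the other cells and so reached the limit through the fibroblast-rich cells, and only 6 members had enough UMIs in the other cells to be called lower with no UMI in the fibroblast-rich cells, or 8 with 1 UMI there. The median ratio of the 30 members seen in both sets was 27.1, against 0.954 over all such genes. Summed over all 44, the level was 15412 CPM in the fibroblast-rich cells (95% interval 15177 to 15649) and 549 CPM in the other cells (540 to 558).

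**Figure D1:**
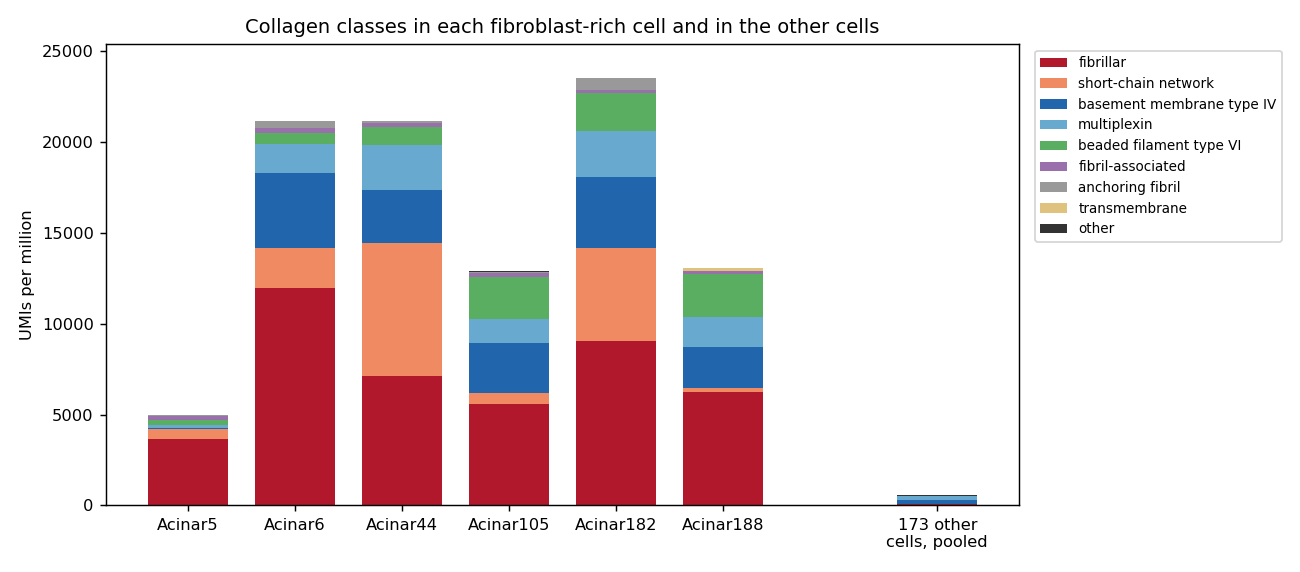
Stacked bars give the summed CPM of each collagen class (vertical axis) in each of the 6 fibroblast-rich cells and, at the right, in the pooled other cells. The bars of the fibroblast-rich cells reach 4981 to 23507 CPM, with the lowest in Acinar5, and the pooled other cells reach 549.

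Per cell, the summed level was 4981 CPM in Acinar5, 21144 in Acinar6, 21145 in Acinar44, 12916 in Acinar105, 23507 in Acinar182 and 13077 in Acinar188. In the other cells it was 0 at the lowest, 481 CPM at the median and 2728 CPM at the highest. All 6 fibroblast-rich cells were thus above every other cell, and Acinar5 was the lowest of them although it was the deepest. The highest of the other cells, Acinar110, was a shallow cell with fewer than 40000 UMIs.

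Fibrillar collagens summed to 6947 CPM in the fibroblast-rich cells and 68.2 CPM in the other cells. Type I collagen, the main fibre of connective tissue, was found in all 6. Col1a2 stood at 1315 CPM in Acinar5, 3620 in Acinar6, 2658 in Acinar44, 1715 in Acinar105, 2333 in Acinar182 and 1873 in Acinar188, and in the other cells at a median of 0 and a highest of 65.6 CPM. Col1a1 stood at 1215, 3794, 2649, 1289.7, 2609 and 1632 CPM in the same order of cells, with a median of 0 and a highest of 20.2 CPM in the other cells. Both chains were highest in Acinar6 and lowest in Acinar5, and no other cell came near the lowest of the 6. Pooled, Col1a2 was 2198 CPM in the fibroblast-rich cells against 0.897 CPM in the other cells, and Col1a1 2131 CPM against 0.897 CPM. Both levels in the other cells rest on 24 UMIs each, and 12 of the 24 Col1a2 UMIs sat in Acinar187.

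Col3a1, the chain of type III fibrils that accompany type I in soft tissue, was less even. It stood at 188.55 CPM in Acinar5, 1007 in Acinar6, 164.1 in Acinar44, 1020.5 in Acinar105, 1107 in Acinar182 and 1413 in Acinar188, and reached at most 55.6 CPM in the other cells. Acinar44, which was among the highest for type I, was the lowest for type III. Only 3 of the other cells had any Col3a1 UMI, and 11 of their 15 UMIs were again in Acinar187: leaving that cell out gave a ratio of the pooled levels of 4954 in place of 1331, and for Col1a2 of 4865 in place of 2451.

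Type V collagen copolymerises with type I and limits fibril width. Col5a1 stood at 377, 1684, 849, 363, 815 and 292 CPM in Acinar5, Acinar6, Acinar44, Acinar105, Acinar182 and Acinar188, with a highest of 37.4 CPM in the other cells. Col5a2 stood at 320.1, 1542, 474, 851, 1450.5 and 348 CPM, with a highest of 63.8 CPM in the other cells. The third chain, Col5a3, stood at 110, 83.9, 131.3, 75.1, 598 and 236 CPM, with a highest of 5.15 CPM in the deep other cells. Acinar6 was highest for Col5a1 and Col5a2, and Acinar182 for Col5a3. Col11a1, a chain of the related type XI collagen, had 66 UMIs in all: 57.1 CPM in the fibroblast-rich cells, with none in Acinar182 and Acinar188, and 0.187 CPM in the other cells. Col11a2 had 39 UMIs and its ratio of 2.09 rested on Acinar44, since it was 0.870 without that cell.

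Col27a1, a fibrillar chain with a shorter helix, was the exception of the class because the other cells carried it widely. Its level was 61.4, 45.2, 126.6, 200.3, 149.5 and 459.8 CPM in the fibroblast-rich cells in the same order, and 0 to 479 CPM with a median of 25.97 CPM in the deep other cells. The ranges of both sets overlapped throughout. The pooled ratio was 2.84, or 1.87 without Acinar188, the fibroblast-rich cell with the most epithelial marker UMIs; the part of that marker level in the result was not tested. It was 1.22 among cells with title numbers up to 96 and 5.52 among those from 97 on.

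**Figure D2:**
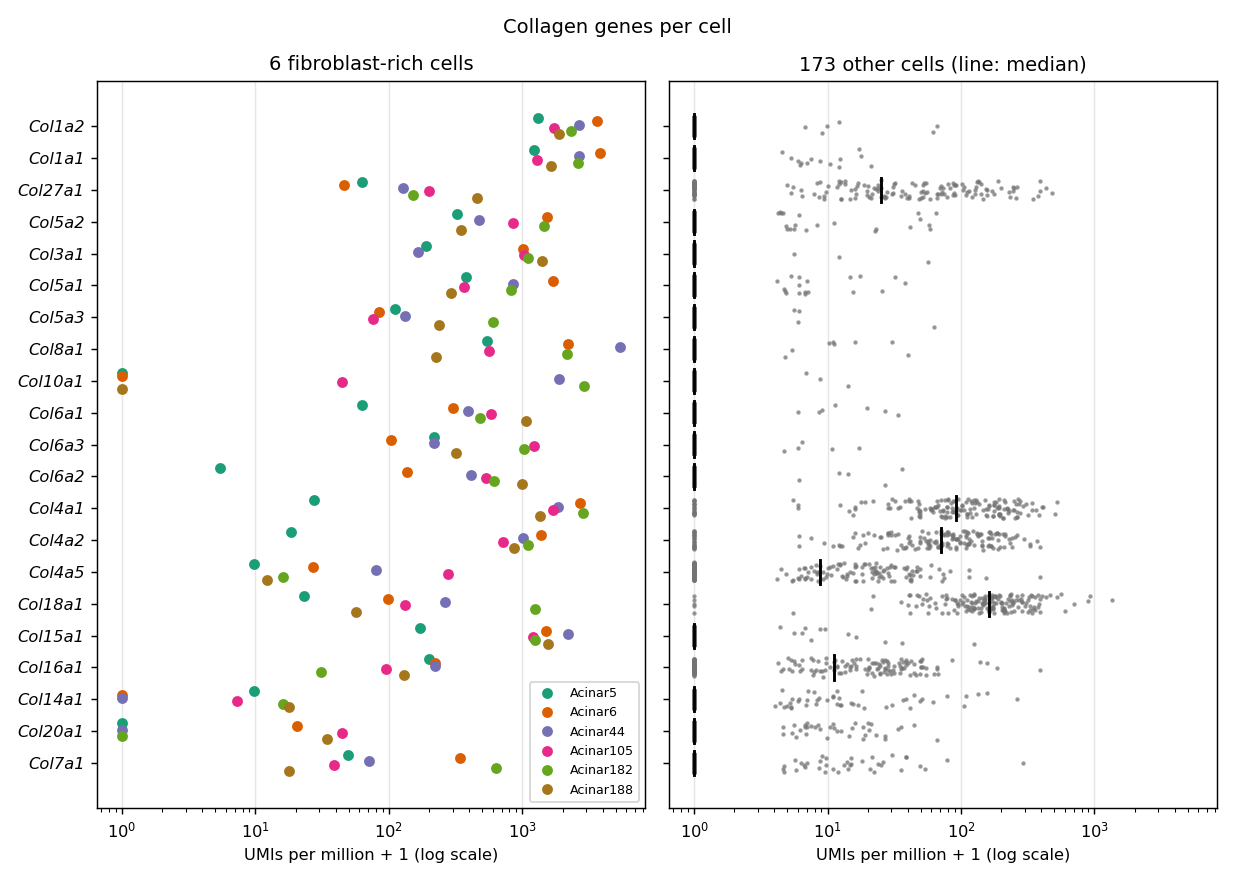
Each point is a cell, placed by CPM plus 1 on a log axis for each of the 21 collagen genes with at least 100 UMIs. The left panel holds the 6 fibroblast-rich cells in colours and the right panel the other cells with their median as a black line. Most genes sit at the left edge in the other cells, while Col18a1, Col4a1, Col4a2 and Col27a1 form broad clouds there.

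Type IV collagen of the basement membrane was shared by both sets. Col4a1 stood at 26.3 CPM in Acinar5, 2716 in Acinar6, 1838 in Acinar44, 1690.4 in Acinar105, 2834 in Acinar182 and 1352 in Acinar188, and at 0 to 502 CPM with a median of 93.9 CPM in the deep other cells. Col4a2 stood at 17.5, 1381, 1003, 714, 1107 and 864 CPM in the same order, and at 0 to 330.4 CPM with a median of 74.1 CPM in those other cells. For both chains 5 of the fibroblast-rich cells were above every such other cell, and Acinar5 was below the median of the other cells. Pooled, Col4a1 was 1600.0 CPM in the fibroblast-rich cells against 121.4 CPM in the other cells, 13.2-fold higher (12.4 to 13.98), and Col4a2 was 794 CPM against 86.7 CPM, 9.16-fold higher (8.46 to 9.91).

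Of the type IV chains that are restricted to particular basement membranes, Col4a5 stood at 8.77, 25.8, 79.7, 275, 14.95 and 11.2 CPM in the fibroblast-rich cells, and at 0 to 153.85 CPM with a median of 9.57 CPM in the deep other cells. Its pooled ratio of 3.82 was carried by Acinar105 and was 1.71 without that cell. It was 2.05 among cells with title numbers up to 96 and 6.56 from 97 on. It passed 4-fold, at 4.72, 4.21, 4.24 and 4.45, without Acinar5, Acinar6, Acinar182 or Acinar188. Col4a6, its neighbour on the X chromosome with a start 1309 bases away on the opposite strand, had 64 UMIs, and all 5 of those in fibroblast-rich cells were in Acinar105 too. Col4a4 had 85 UMIs, 5.62 CPM in the fibroblast-rich cells and 2.95 CPM in the other cells, and Col4a3 had 10 UMIs.

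Short-chain network collagens, which form hexagonal lattices in vessel walls and growth cartilage, were the class most concentrated in the fibroblast-rich cells, at 2661 CPM against 1.42 CPM in the other cells. Col8a1 stood at 539 CPM in Acinar5, 2187 in Acinar6, 5434 in Acinar44, 563 in Acinar105, 2176 in Acinar182 and 224 in Acinar188, and reached at most 39.4 CPM in the other cells. It was highest in Acinar44 and lowest in Acinar188, and every one of the 6 was above all deep other cells. Without Acinar44 the pooled ratio of 2842 became 1535.

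Col10a1, known as a product of hypertrophic cartilage cells, was uneven. It had 1885 CPM in Acinar44, 2901 CPM in Acinar182, 43.8 CPM in Acinar105 and no UMI in Acinar5, Acinar6 and Acinar188. In the other cells there were 3 UMIs in all, which gives a ratio of 6655 with a counting interval of 2269 to 32339, and 4121 without Acinar44 or 3904 without Acinar182. Its exons overlap those of Nt5dc1 on the opposite strand, and the strand setting was not given in the sources used here, so reads of the shared bases cannot be told apart. Nt5dc1 had 75.02 CPM in Acinar44, 202 CPM in Acinar182 and 0 to 21.9 CPM in the remaining 4, with a median of 14.2 CPM in the other cells. Col8a2 had 20 UMIs, and its ratio of 4.42 was 1.72 without Acinar6 and 3.47 without Acinar105.

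Type VI collagen, a beaded filament around cells, stood at 1353 CPM in the fibroblast-rich cells and 1.76 CPM in the other cells. Col6a1 stood at 61.4, 303, 394, 582, 479 and 1066 CPM in Acinar5, Acinar6, Acinar44, Acinar105, Acinar182 and Acinar188, with a highest of 32.97 CPM in the deep other cells. Col6a2 stood at 4.38, 135.5, 408, 532, 613 and 987 CPM, with a highest of 35.4 CPM in those cells. Col6a3 stood at 215, 103.2, 216, 1215, 1024 and 320 CPM, with a highest of 16.2 CPM in those cells. Col6a1 and Col6a3 were above every such cell in all 6, and Col6a2 in 5, since Acinar5 held a single UMI of it. Acinar188 was highest for Col6a1 and Col6a2 but not for Col6a3, which was highest in Acinar105 and Acinar182. For Col6a2, 7 of the 15 UMIs in the other cells were in Acinar187, without which its pooled ratio of 755 was 1405. Col6a4, Col6a5 and Col6a6 had 3, 4 and 5 UMIs in all cells.

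The multiplexins Col15a1 and Col18a1, close relatives whose C-terminal ends can be released as fragments that restrain vessel growth, split between the sets. Col15a1 stood at 171.01 CPM in Acinar5, 1503 in Acinar6, 2208 in Acinar44, 1196 in Acinar105, 1249 in Acinar182 and 1565 in Acinar188, with a highest of 35.4 CPM in the deep other cells, and a pooled ratio of 1280.4 (876 to 1950.0). Col18a1 had 199.7 CPM pooled in the other cells and a UMI in all but 5 of them. It stood at 21.9, 96.8, 263, 131.5 and 56.1 CPM in Acinar5, Acinar6, Acinar44, Acinar105 and Acinar188, and at 1249 CPM in Acinar182. The deep other cells held 0 to 1343 CPM with a median of 165.03 CPM, so the ranges overlapped. Its pooled ratio of 1.28 turned to 0.573 without Acinar182 and to 0.640 among title numbers up to 96, against 2.09 from 97 on, and no direction is given for it.

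Among the fibril-associated collagens, which decorate or link other matrix fibres, Col16a1 stood at 197, 219, 220.4, 93.9, 29.9 and 128.98 CPM in the fibroblast-rich cells in the same order against 0 to 183.5 CPM with a median of 12.6 CPM in the deep other cells. Its ranges overlapped and the pooled ratio was 8.45 (7.05 to 10.1). Col14a1 was 7.49 CPM in the fibroblast-rich cells (3.23 to 14.8) against 7.96 CPM (6.93 to 9.10), and 44 of its 213 UMIs in the other cells were in Acinar61. Its ratio of 0.941 had a counting interval of 0.401 to 1.89, and was 1.10 without Acinar6 and 1.18 without Acinar44, 0.301 among title numbers up to 96 and 3.64 from 97 on. Col20a1 had UMIs in Acinar6, Acinar105 and Acinar188 and none in the remaining 3, which gave 14.98 CPM pooled against 3.44 CPM in the other cells, and its ratio of 4.36 was 2.88 without Acinar105 and 3.27 without Acinar188, 1.54 among title numbers up to 96 and 7.497 from 97 on. BX649560.1 overlaps it on the same strand, so its count is uncertain. Col12a1 had 56 UMIs, 37.4 CPM in the fibroblast-rich cells and 0.598 CPM in the other cells, and Col9a3 had 25, all in the other cells.

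Col7a1, the anchoring fibril that ties epithelial basement membrane to the stroma, stood at 48.2, 342, 70.3, 37.6, 636 and 16.8 CPM in the fibroblast-rich cells and at 0 to 288 CPM in the deep other cells, with a UMI in 38 of all other cells. The pooled ratio of 36.1 was 21 without Acinar182. Of the transmembrane collagens, Col23a1 had 81 UMIs and was 31.8 CPM in the fibroblast-rich cells, led by Acinar188 at 128.98 CPM, against 1.76 CPM in the other cells. Col13a1 had 52 UMIs, all in the other cells (1.94 CPM). At the depth of the fibroblast-rich cells, 3 UMIs are 2.81 CPM, so the level in the other cells is below the floor used here and no ratio is given. Col26a1 had 85 UMIs, of which 43 were in Acinar162, and Col28a1 had 37, at 14.04 CPM in the fibroblast-rich cells and 0.822 CPM in the other cells.

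The 12 members with fewer than 20 UMIs in all cells were Col22a1 with 18, Col2a1, Col4a3 and Col9a1 with 10 each, Col17a1 and Col19a1 with 9 each, Col24a1 with 8, Col9a2 with 7, Col6a6 with 5, Col6a5 and Col25a1 with 4 each and Col6a4 with 3. Col2a1, the chain of cartilage fibrils, and Col9a1 and Col9a2 of the type IX collagen on their surface were among them. No comparison was made for these genes.

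Apart from the chain pairs, levels of different genes were compared as reads per kilobase of transcript, scaled to read CPM, with the transcript that has the longest coding sequence. The kinds of reads counted were not given in the sources used here, so the length scaling is approximate. On that scale the fibroblast-rich cells were led by Col1a2 at 527, Col8a1 at 437, Col1a1 at 367, Col10a1 at 311, Col15a1 at 267 and Col4a1 at 245. The other cells were led by Col18a1 at 34.3, Col4a1 at 16.1, Col4a2 at 13.7, Col27a1 at 7.08, Col16a1 at 3.24 and Col4a5 at 2.66. Col4a1 was the only gene in both of these lists of 6.

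Shares of cells with a UMI were taken after each cell had been thinned to 40000 UMIs, which left out 18 shallower other cells and kept all 6 fibroblast-rich cells. Col18a1 was seen in 6 of 6 fibroblast-rich cells and 96.1% of the other cells (95% interval 91.8 to 98.6%), Col4a1 in 6 of 6 and 85.2% (78.6 to 90.4%), and Col4a2 in 6 of 6 and 80% (72.8 to 85.99%). Col27a1 was seen in 63.2% of the other cells, Col16a1 in 46.5% and Col4a5 in 35.5%. By contrast Col1a1 and Col1a2 were each seen in 1.29% of the other cells (0.157 to 4.58%) and Col3a1 in 0.645%, against 6 of 6 fibroblast-rich cells for each. Col6a3 was seen after thinning in 6 of 6 fibroblast-rich cells and Col10a1 in 3 of 6, against none of the other cells for both (0 to 2.35%). Without thinning, 5 other cells held a UMI of Col6a3 and 3 a UMI of Col10a1. At this equal depth, the shares of Col18a1, Col4a1 and Col4a2 in the other cells were far above those of Col1a1, Col1a2 and Col3a1 in the same cells. This did not hold for every type IV gene, since Col4a3 was seen in 2.58% of the other cells (0.708 to 6.48%). Col4a6 was seen in 7.10% and Col4a4 in 9.03%.

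Of the UMIs of the 12 members with at least 100 UMIs and at least 80% of them in the fibroblast-rich cells, 98.1% lay in those 6 cells, as the choice of members fixes. The remaining 247 UMIs were uneven over the other cells: 67 cells had any, of which 47 had 1 or 2 and 5 had more than 10. The highest was Acinar187 with 48 UMIs of 10 of the 12 genes, or 243 CPM, which is low beside the 4516 CPM of these genes in Acinar5, the lowest of the fibroblast-rich cells.

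**Figure D3:**
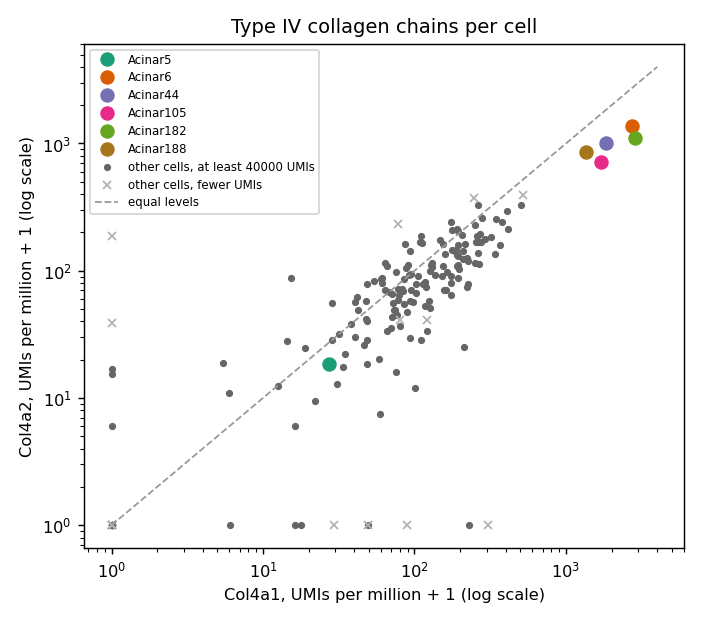
Each point is a cell, with Col4a1 on the horizontal and Col4a2 on the vertical axis, both as CPM plus 1 on log scales. Coloured circles are the fibroblast-rich cells and grey marks the other cells. 5 coloured points lie beyond all grey ones with at least 40000 UMIs, Acinar5 lies within the cloud, and the rank correlation over the deep other cells was 0.808.

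Chains that assemble into the same trimer kept closer proportions in some pairs than in others, by UMIs not scaled to gene length. Col1a1 was 49.2% of the UMIs of Col1a1 and Col1a2 pooled in the fibroblast-rich cells (47.8 to 50.7%) and 50% in the other cells (35.2 to 64.8%, on 24 UMIs of each). Across the 6 cells it ran from 42.9% in Acinar105 to 52.8% in Acinar182, while the summed UMIs of the pair differed more than this. Counted as reads, it was 43.6% in the fibroblast-rich cells. The common type I collagen protein holds more alpha1 than alpha2 chains.

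Col4a1 was 66.8% of the Col4a1 and Col4a2 UMIs in the fibroblast-rich cells (64.97 to 68.7%) and 58.3% in the other cells (57.04 to 59.6%). The 5 fibroblast-rich cells with at least 20 UMIs of the pair held 61.01% (Acinar188) to 71.9% (Acinar182), and 96 other cells held 34.5 to 89.7% with a median of 58.4%, so the ranges overlapped. The annotated gene spans share 22 bases and the strand used for counting was not given, so reads of those bases cannot be assigned. Col6a1 was 52.1% of the Col6a1 and Col6a2 UMIs in the fibroblast-rich cells, from 43.8% in Acinar182 to 69.1% in Acinar6. Col5a1 was 48.1% of the Col5a1 and Col5a2 UMIs in the fibroblast-rich cells and 32.6% in the other cells. Among fibroblast-rich cells with at least 20 UMIs of a pair, the Col5a1 share varied most of the pairs. It ran from 29.9% in Acinar105 (23.6 to 36.9%) to 64.2% in Acinar44 (58.3 to 69.8%), intervals that do not meet. By reads the order turned. Col5a1 then ran from 28.2% to 56.3%, and Col6a1 from 51.4% in Acinar182 to 94.7% in Acinar5, the latter on 36 and 2 reads.

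**Figure D4:**
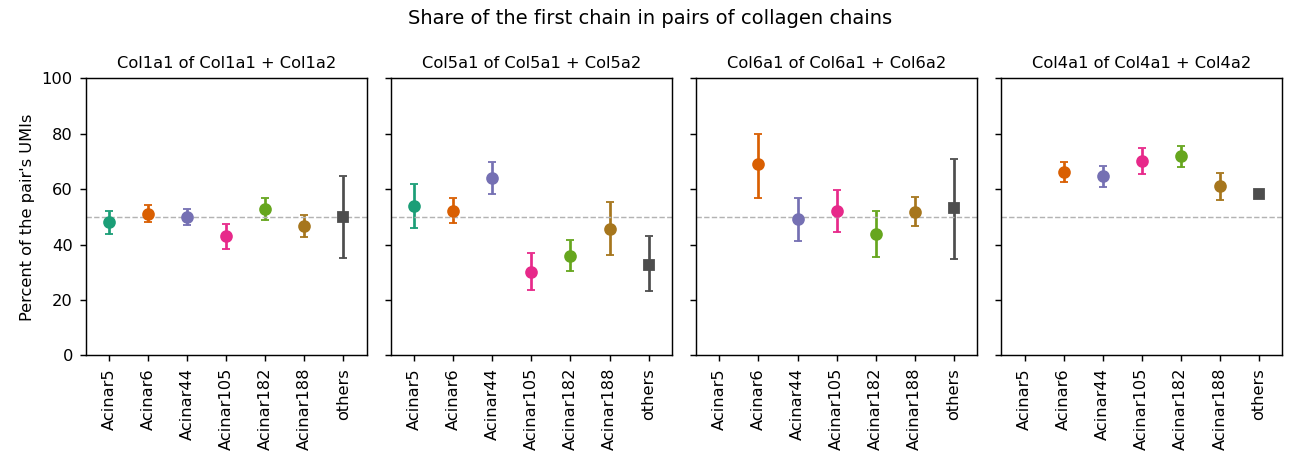
Each panel gives the percentage of a chain pair's UMIs that came from the chain named first, for each fibroblast-rich cell with at least 20 UMIs of the pair (circles) and for the pooled other cells (squares), with exact 95% binomial intervals. Col1a1 stays between 42.9% and 52.8%, Col5a1 spreads from 29.9% to 64.2%, and Col4a1 is above 60% in all 5 cells shown.

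Among the deep other cells, Col4a1 and Col4a2 moved together most closely of the 4 pairs examined, with a Spearman rho of 0.808. It was 0.255 for Col4a5 with Col4a6, 0.091 for Col4a3 with Col4a4 and 0.077 for Col17a1 with Col7a1, pairs with few UMIs, where a weak correlation is no finding. Added after the levels were known, rho was 0.537 for Col27a1 with Col4a1, 0.46 for Col18a1 with Col27a1, 0.418 for Col4a1 with Col4a5, 0.371 for Col18a1 with Col4a1 and 0.292 for Col16a1 with Col4a1. The points share a library preparation and, in part, depth, and rho with the UMI total was 0.013 to 0.111 for these genes.

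The enzymes and chaperones that fold and modify collagen in the endoplasmic reticulum were present in both sets. Of 19 such genes, 12 were at least 4-fold higher in the fibroblast-rich cells and 0 lower. Of all genes, 8.08% were that much higher and 7.1% that much lower. The summed level of the 19 genes was 4386 CPM in the fibroblast-rich cells against 1092 CPM in the other cells. P4ha3 had 6 UMIs in the other cells and so reached the UMI limit for a call only through the fibroblast-rich cells. Serpinh1, the collagen chaperone HSP47, was 909.99 CPM against 34.8 CPM, and ran from 510.3 CPM in Acinar188 to 1761 CPM in Acinar6. The lysyl hydroxylases Plod1 and Plod3 were 14.9-fold and 4.02-fold higher, Plod3 only 3.55-fold to 3.75-fold without Acinar5, Acinar6 or Acinar44, the prolyl hydroxylase subunits P4ha1 and P3h1 13.7-fold and 13.5-fold, the P3h1 partner Crtap 7.33-fold, P3h4, a partner of lysyl hydroxylase, 13.9-fold and the chaperone Fkbp10 472-fold. General folding factors differed less, with P4hb at 797 CPM against 451 CPM and Ppib at 146.98 CPM against 94.4 CPM. Colgalt1, which adds galactose to hydroxylysine, was 188.2 CPM in the fibroblast-rich cells and 244 CPM in the other cells.

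Genes of propeptide removal and crosslinking outside the cell were at least 4-fold higher in 10 of 12 cases and lower in 0. The shares of all genes were the same 8.08% and 7.1%. The summed level was 2533 CPM in the fibroblast-rich cells against 106.9 CPM in the other cells. Lox, Tll1 and Loxl3 had 2, 8 and 14 UMIs in the other cells. These genes reached the UMI limit for a call only through the fibroblast-rich cells. Loxl1 is also a listed fibroblast marker. The count is thus no support for a direction. Bmp1, which trims the C-propeptide, was 12.3-fold higher, its enhancer Pcolce 32.4-fold and Adamts2, which trims the N-propeptide, 212-fold. The crosslinking oxidases Loxl2, Loxl1 and Loxl3 were 74.5-fold, 140.9-fold and 424-fold higher. Lox had 253 CPM in the fibroblast-rich cells, led by Acinar6 at 890.4 CPM, and 2 UMIs in all other cells, a ratio of 3382 with a counting interval of 927 to 28067. Without Acinar6 the Lox ratio was 1934, and without Acinar44 Pcolce2, another propeptide enhancer gene, was 3.58-fold higher in place of 5.01-fold. Adamts3 was 30.9 CPM in the fibroblast-rich cells against 36.6 CPM in the other cells, and the oxidase Loxl4 9.36 CPM against 9.60 CPM.

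**Figure D5:**
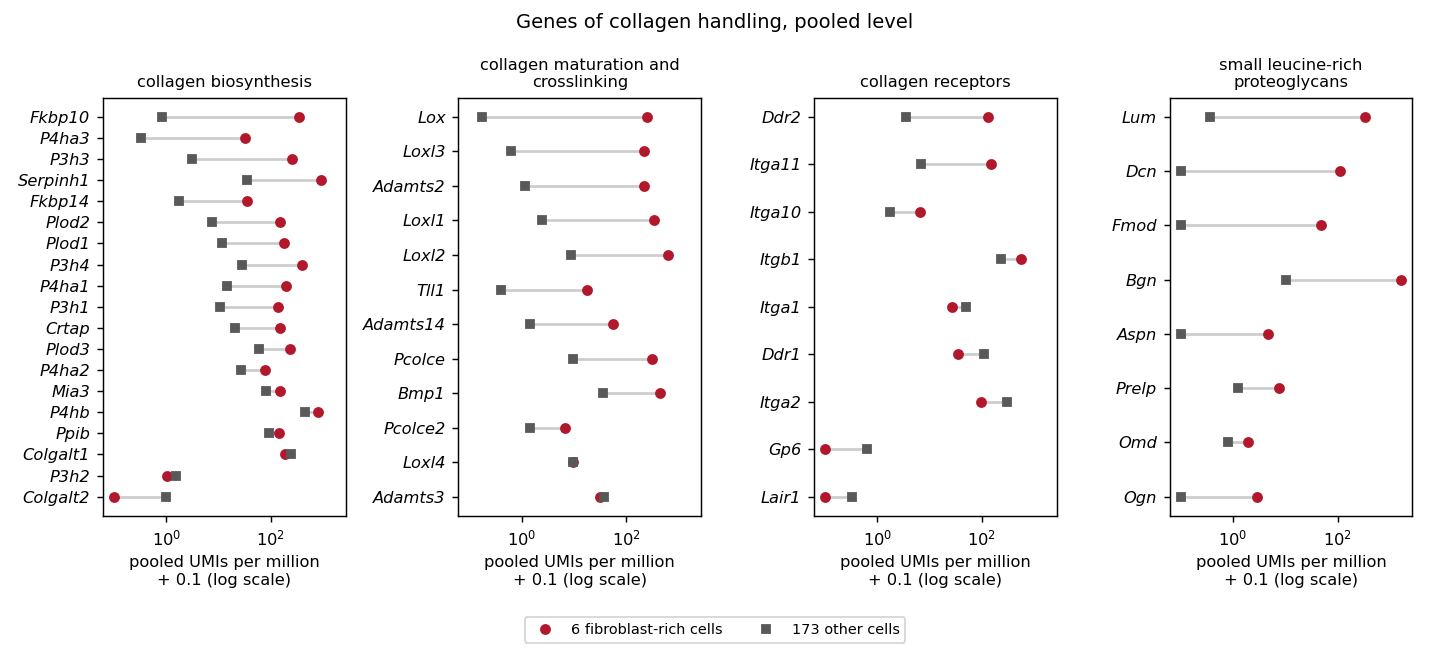
Pooled CPM plus 0.1 on a log axis for each gene of 4 lists, with red circles for the 6 fibroblast-rich cells and grey squares for the other cells, joined by a line. Circles lie to the right of squares for most biosynthesis, maturation and proteoglycan genes, such as Serpinh1 at 909.99 against 34.8, and to the left for the receptors Ddr1 and Itga2.

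Collagen receptors were mixed. Of the 7 of 9 receptor genes with at least 20 UMIs, 2 were at least 4-fold higher and 0 lower, against 8.08% and 7.1% of all genes. Ddr2, a tyrosine kinase that binds fibrillar collagen, was 131.07 CPM in the fibroblast-rich cells and 3.44 CPM in the other cells. Itga11 was 149.8 CPM against 6.65 CPM, with 897 CPM in Acinar6, the fibroblast-rich cell with the most smooth muscle marker UMIs; the part of those markers was not tested. Without Acinar6 its level was 22.997 CPM, on 21 UMIs, and 3.46-fold higher, so the call rested on that cell. Itga10 was 3.90-fold higher (1.48 to 8.70), on 7 UMIs in the fibroblast-rich cells. It was 4.17-fold to 4.96-fold higher without Acinar5, Acinar6 or Acinar44, and 2.545-fold higher without Acinar182. Ddr1 and Itga2, named after their values were seen, stood at 34.6 CPM against 107.6 CPM and 95.5 CPM against 297 CPM. Ddr1 passed 4-fold lower without Acinar6, at a ratio of 0.234, and Itga2 without Acinar44, at 0.209.

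Small leucine-rich proteoglycans, which bind collagen fibrils, were at least 4-fold higher in 5 of the 6 with at least 20 UMIs, against 8.08% of all genes. Dcn, Lum and Fmod had 0, 7 and 0 UMIs in the other cells and so reached 20 only through the fibroblast-rich cells. The count is thus no support for a direction. Without Acinar188 the count was 3, since Fmod then had 2 UMIs and Prelp was 1.94-fold higher in place of 6.46-fold. Bgn was 1667 CPM in the fibroblast-rich cells, from 995 CPM in Acinar5 to 2078 CPM in Acinar6, against 10.1 CPM in the other cells. Lum was 329 CPM against 0.262 CPM. Dcn was 113.3 CPM against no UMI. With a floor of 3 UMIs over the other cells its ratio was 1010.4, with a counting interval from 809 upward. Kera and Epyc were not analysed here.

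The Gly-X-Y repeat was read from the coding sequences of GENCODE M21 transcripts, and all 44 members held a run of at least 10 triplets with a glycine codon in phase. The longest unbroken run was 338 triplets in Col1a1, 339 in Col1a2 and Col5a2, 338 in Col5a1 and 344 in Col3a1. It was 217 in Col27a1 and 216 in Col24a1, the shorter-helix fibrillar chains. Type IV chains, whose helix is interrupted, had longest runs of 39 (Col4a3) to 66 (Col4a2), with 79.2% of the Col4a1 codons in runs of at least 5 triplets. The longest run was 61 in both Col8a1 and Col10a1, 87 in Col6a1 and Col6a2, and 30 in both Col15a1 and Col18a1. The members that led the fibroblast-rich cells thus included long-run fibrillar chains as well as short-run network chains, and those that led the other cells were short-run chains apart from Col27a1.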

How the data were processed

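The authors deposited 2 tables for the 179 cells (6 fibroblast-rich and 173 others, 155 of them with at least 40000 UMIs), UMI counts and read counts, as raw whole-number counts with a row per cell and 32100 Ensembl identifiers. The tools STAR and featureCounts and, as builds, GRCm38 and mm10 appear without versions, per the submitters' processing notes. UMI collapsing, cell and gene selection, which reads were counted and the strand setting are not given in the sources used here. Symbols were found for 31985 identifiers and not for 115. Members and lists were chosen with earlier results of these data known.

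UMIs of the 6 fibroblast-rich and of the other cells were pooled and expressed as CPM (counts scaled to a total of 1000000), with exact 95% Poisson intervals. Ratios have exact conditional binomial intervals, shares exact binomial ones, and a group at 0 was set to a floor of 3 UMIs over the group. A gene with at least 20 UMIs was called higher or lower at 4-fold. For shares, cells were thinned to 40000 UMIs, which left out 18 cells. Doublets were not searched for. The labels give 1 cell per sample, and whether any sample held more was not tested. Acinar188 held 8154 CPM of fibroblast markers and 6954 CPM of epithelial markers. Cells are 1 labelled group, so no test between sets of cells was made. Dixon's criterion over the 6 cells is a description. Intervals cover counting error only.

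Members with at least 100 UMIs are named with values, those with 20 to 99 by total, and in other lists up to 8 genes past 4-fold with at least 100 UMIs, most UMIs first. Other genes given with values were chosen after seeing them. Protein sequences were planned but coding sequences of GENCODE M21 (GRCm38) were used to find repeats. Promoters are from RefSeq. Ratio calls were tested on simulated counts. Python 3.11.15, numpy 2.4.6, pandas 2.3.3, scipy 1.17.1 and matplotlib 3.10.9 were used. Alternatives were read counts, equal cell weights, other filters, folds, thinning depths and cell sets.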

Additional observations from a re-analysis of the deposited data

Results flagged for a closer look

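Among the 21 collagen genes with at least 100 UMIs, 4 had 1 of the 6 fibroblast-rich cells far above the rest, by Dixon's criterion at the 95% level. Chance alone passes it in about 1 in 20 groups of normally distributed values. Whether these CPM are so distributed was not checked, so 4 of 21 is not read as an excess. The 6 cells are not a labelled group, and no explanation was weighed. Col18a1 was 1250 CPM in Acinar182, where the next cell held 263 CPM. Col5a3 was 598 CPM in Acinar182, with 236 CPM next. Col4a5 was 275 CPM in Acinar105, with 79.7 CPM next. Col27a1 was 460 CPM in Acinar188, with 200 CPM next.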

How the results depend on the processing

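The summed level of all 44 members was 28.09 times higher in the fibroblast-rich cells, and 18.92 times without Col1a1, Col1a2 and Col3a1. With read counts these ratios were 33.29 and 21.93, with equal weight per cell 29.33 and 19.83, with title numbers up to 96 they were 26.74 and 17.5, and from 97 on 29.95 and 20.87. Leaving out 1 fibroblast-rich cell gave 25.48 to 33.25 and 16.48 to 22.93. Without the shallower cells numbered 97 to 120, a choice made after seeing the data, the ratio for all members was 28.81. The share of all genes at least 4-fold lower was 4.135% with no filter on UMIs, and at 2-fold 16.39% were higher and 16.83% lower. Members at least 4-fold higher were 20 to 23 when 1 fibroblast-rich cell was left out, where 7.7 to 8.16% of all genes were. At 2-fold they were 26 of 32. Members called lower were 1 at 2-fold and 1 by reads. The members seen in at least 10% of the other cells were 9 after thinning and 17 without it. By reads, Col1a1 was 43.59% of its pair in the fibroblast-rich cells and 67.68% in the other cells, Col4a1 63.09% and 54.65%, and Col6a1 58.34% and Col5a1 41.58% in the fibroblast-rich cells; the cause was not tested. Among title numbers up to 96 and from 97 on, the ratio was 3741 and 1429 for Col1a1, 12450 and 1036 for Col1a2, 6122 and 950.9 for Col3a1, 575.6 and 3169 for Col5a3, 2852 and 579.3 for Col6a2, 4712 and 1106 for Col8a1, and 10.6 and 5.311 for Col16a1. Leaving out 1 fibroblast-rich cell at a time for the genes of the other lists was also chosen after seeing the data. Of 293 values of single members under other settings, 243 stayed within the counting interval, 50 fell outside it and 0 called values changed direction. No paired analysis was possible because the cells form 1 labelled group with no shared replicate numbers.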
